A study of Rattus norvegicus with 6 samples.

Results

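In mesenchymal stem cells grown from rat bone marrow (BMSCs), 6 LncRNAs were described: LOC102546476, LOC102547518, AABR07013747.2, AABR07068554.1, AABR07026499.2 and LOC102551409. They were selected by their values on the same 6 arrays, as LncRNAs that the study's heatmap lists as raised under hypoxia and whose rise was small on the array of hypoxia replicate 1 and large on those of replicates 2 and 3. Each was read by 1 probe, and they made up 6 of the 15 LncRNAs listed as raised and 6 of 6246 LncRNA probes tested. Because these values chose them, the changes of the 6 LncRNAs under hypoxia are given as a description with no p-value, and calls from fits across all probes are only counted beside their background. The BMSCs came from the bone marrow of Sprague-Dawley rats, carried no genetic change and were kept for 48 h either in normoxia (20% oxygen, 3 samples) or in hypoxia (0% oxygen, 3 samples). The sources call the samples of a group biological replicates and do not say which rats each came from. Total RNA was labelled with Cy3 and hybridized to single-colour Agilent arrays, 1 array per sample, on which the brightness of a spot rises with the amount of transcript bound to its probe.

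LncRNAs are long transcripts that are not translated into protein. Some act in the nucleus on transcription, others act in the cytoplasm on the stability or translation of messenger RNAs, and for most of them no function is known. Mesenchymal stem cells of the bone marrow can form bone, cartilage and fat cells, and cells that lack oxygen change their transcription largely through hypoxia-inducible factors (HIFs), proteins that bind DNA at a short core motif. Names that begin with LOC are provisional gene symbols, and names that begin with AABR are built from accessions of genome sequence. None of the 6 names thus carries a statement on function.

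RefSeq's gene table for GRCr8, a rat genome assembly, held 2 of the 6 names, and the array files give no position for any probe. LOC102546476 is annotated there as a LncRNA gene on chromosome 19, on the minus strand, with 1 transcript and 0 overlapping genes, and its nearest annotated neighbours are the small nucleolar RNA gene LOC120098699 and the protein-coding gene Igkvl15. LOC102551409 is a LncRNA gene of chromosome 4, on the plus strand, with 1 transcript and 0 overlapping genes. It lies between Lrp6, which encodes a co-receptor of Wnt signalling, and Mansc1, also a protein-coding gene. LOC102547518, AABR07013747.2, AABR07068554.1 and AABR07026499.2 were not placed.

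The promoter windows of the 2 placed LncRNAs are shown because they are the ones for which a sequence was at hand. Each window holds 300 bases of RefSeq sequence from GRCr8, read 5′ to 3′ on the gene's own strand, from chr19:3454154-3454453 (minus strand) and chr4:169146472-169146771 (plus strand). The capitals mark the letters CCAAT.
LOC102546476: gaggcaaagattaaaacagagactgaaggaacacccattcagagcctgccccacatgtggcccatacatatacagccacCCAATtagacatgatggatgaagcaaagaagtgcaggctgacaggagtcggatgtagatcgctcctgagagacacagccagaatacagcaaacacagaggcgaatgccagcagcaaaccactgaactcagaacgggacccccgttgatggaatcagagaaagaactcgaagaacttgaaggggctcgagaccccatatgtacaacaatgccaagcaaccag
LOC102551409: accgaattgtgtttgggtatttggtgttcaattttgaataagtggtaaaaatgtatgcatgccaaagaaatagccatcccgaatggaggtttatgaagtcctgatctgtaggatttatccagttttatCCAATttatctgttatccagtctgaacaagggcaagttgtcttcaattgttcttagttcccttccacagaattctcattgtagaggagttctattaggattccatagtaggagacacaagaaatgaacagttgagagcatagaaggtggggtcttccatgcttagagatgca
The core motif bound by HIFs, searched on both strands as ACGTG and in the alternative spelling GCGTG, was in neither window, and neither was TATAAA. Of all 33469 promoter windows of this length, 41.6% held at least 1 of these spellings and 14.2% held TATAAA. The letters CCAAT were found 1 time in each window, against 37.5% of all windows that held it on either strand. The G and C content was 50.0% for LOC102546476 and 38.7% for LOC102551409, where the median window had 51.7%. A run of at least 30 bases of the LOC102546476 window also occurred in the windows of 33 of 33468 other genes, and 0 of them shared such a run with the LOC102551409 window. These letters say nothing of which factors bind there.

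The arrays were read in 2 scans, which the file headers record by their time. Hypoxia replicate 1 was read in the scan of the 3 normoxia arrays, and hypoxia replicates 2 and 3 were read together in the other. The median local background was 14 to 16 intensity units on the 4 arrays of the first of these and 22 to 22.5 on the other 2, and 74.3% to 77.9% of probes were detected on the former and 84.7% to 85.8% on the latter. Saturated spots numbered 0 on each array. No normoxia array was read in the scan of hypoxia replicates 2 and 3, so that for a change seen in them alone the scan and the sample cannot be told apart. In RNA from a whole culture, fewer cells of one kind and less RNA per cell cannot be told apart either. With 3 arrays per condition, their number limits the precision of every value.

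Values below are log2 intensities after quantile normalization, which gives all arrays the same distribution, and probes are set against each other only by their rank or group of brightness, which hybridization also sets. LOC102546476 had normalized log2 values of 3.88, 3.90 and 4.16 on normoxia arrays 1 to 3 and of 4.80, 7.19 and 7.21 on hypoxia arrays 1 to 3. All hypoxia values lay above all normoxia values, but hypoxia replicate 1 stayed near normoxia while replicates 2 and 3 lay far above it and close to each other. It was 0.82 above the normoxia mean in replicate 1, or 1.77-fold, and 3.22 above it in the mean of replicates 2 and 3, or 9.30-fold. With another background correction (normexp) the rise of this dim probe in replicates 2 and 3 was 1.60.

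LOC102551409 had normalized log2 values of 4.75, 4.61 and 4.64 under normoxia and of 5.17, 7.18 and 6.93 under hypoxia. The groups did not overlap, and again replicate 1 was the low one of the hypoxia arrays. The difference from the normoxia mean was 0.50 in replicate 1 (1.42-fold) and 2.39 in replicates 2 and 3 (5.23-fold). With normexp the latter was 1.18. The normoxia arrays lay within 0.13 of each other for this probe, and hypoxia replicate 1 exceeded the highest of them by 0.42.

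LOC102547518 had normalized log2 values of 8.75, 8.75 and 9.05 under normoxia and of 9.58, 11.65 and 11.90 under hypoxia. Its difference from the normoxia mean was 0.73 in replicate 1 (1.66-fold) and 2.93 in replicates 2 and 3 (7.60-fold). The step from hypoxia replicate 1 to replicates 2 and 3 was thus larger than the step from normoxia to replicate 1.

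AABR07013747.2 had normalized log2 values of 7.84, 7.37 and 7.76 under normoxia and of 8.32, 10.34 and 10.85 under hypoxia. The difference from the normoxia mean was 0.67 in replicate 1 (1.59-fold) and 2.94 in replicates 2 and 3 (7.67-fold). Replicates 2 and 3 differed from each other by 0.51, the widest gap between them among the 6 LncRNAs. Hypoxia replicate 1 lay 0.49 above the highest normoxia array, close to the 0.47 that the normoxia arrays spanned among themselves.

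AABR07068554.1 had normalized log2 values of 10.91, 10.67 and 11.19 under normoxia and of 11.69, 12.98 and 13.01 under hypoxia. The difference from the normoxia mean was 0.77 in replicate 1 (1.70-fold) and 2.07 in replicates 2 and 3 (4.21-fold), the smallest rise of the 6 in those arrays. Hypoxia replicate 1 exceeded the highest normoxia array by 0.50, which is less than the 0.52 spanned by the normoxia arrays.

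AABR07026499.2 had normalized log2 values of 5.49, 5.70 and 5.53 under normoxia and of 6.16, 8.31 and 8.36 under hypoxia. The difference from the normoxia mean was 0.59 in replicate 1 (1.50-fold) and 2.76 in replicates 2 and 3 (6.78-fold). Replicates 2 and 3 agreed within 0.05, while replicate 1 lay 2.15 below replicate 2.

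**Figure D1:**
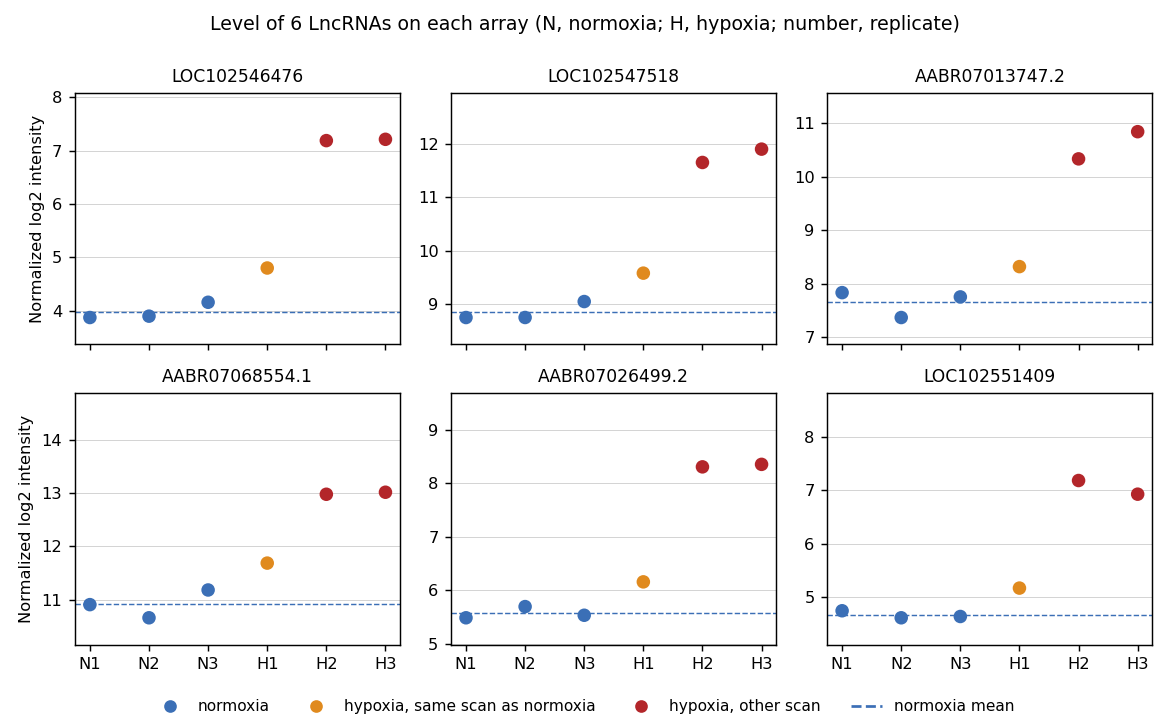
Normalized log2 intensity (vertical axis, with the same span in every panel) of the 6 LncRNAs on each array (horizontal axis), with 1 point per array and the normoxia mean as a dashed line. In every panel hypoxia replicate 1 sits 0.50 to 0.82 above the normoxia mean and hypoxia replicates 2 and 3, read in the other scan, sit 2.07 to 3.22 above it on average.

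The 6 LncRNAs therefore shared 1 order of levels, with the normoxia arrays lowest, hypoxia replicate 1 next and hypoxia replicates 2 and 3 highest. All 3 hypoxia arrays lay above all 3 normoxia arrays for 6 of 6, against 17.9% of the LncRNA probes and 17.3% of all probes tested, and since the 6 were chosen for a rise nothing is read from that count. Over the 6, hypoxia replicate 1 exceeded the highest normoxia array by 0.42 to 0.64, where the normoxia arrays spanned 0.13 to 0.52. Hypoxia replicates 2 and 3 lay 1.29 to 2.52 above replicate 1, and replicate 3 differed from replicate 2 by between -0.26 and 0.51. Averaged over the 3 hypoxia arrays, the rise was 3.11-fold for AABR07068554.1, 3.39-fold for LOC102551409, 4.10-fold for AABR07026499.2, 4.54-fold for AABR07013747.2, 4.57-fold for LOC102547518 and 5.35-fold for LOC102546476. The SD of the hypoxia arrays was 0.75 to 1.38 on the log2 scale (n = 3), against 0.07 to 0.26 (n = 3) for normoxia, so that these means describe none of the hypoxia samples. After normexp background correction the averaged log2 rise of LOC102551409 was 0.84, under 2-fold, and that of LOC102546476 was 1.19, and the rise stayed over 3-fold for 3 of the 6.

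Before any scaling between arrays, hypoxia replicates 2 and 3 lay above every normoxia array for 6 of 6 LncRNAs. Replicate 1 did so for 4 of 6. The share of all probes that did so was not counted without scaling. Since the 6 were chosen for a rise, nothing is read from these counts. Over all LncRNA probes tested, the median change without scaling was 0.89 in replicates 2 and 3 and -0.28 in replicate 1. For LOC102546476 the background-corrected intensity was 14.6, 13.1 and 12.0 on the normoxia arrays, 19.9 on hypoxia replicate 1 and 195 and 165 on hypoxia replicates 2 and 3. The local background under this spot was 15, 15 and 15 under normoxia, 11 in replicate 1 and 23 and 21 in replicates 2 and 3, so that its normoxia signal was no larger than the background beneath it. For LOC102551409 the normoxia intensities were 28.1, 22.0 and 17.0 and the hypoxia intensities 26.1, 195 and 138, with replicate 1 inside the normoxia range. For AABR07013747.2 the normoxia arrays gave 281, 165 and 167 and the hypoxia arrays 249, 1453 and 1604, where replicate 1 was again inside the normoxia range. For AABR07068554.1 the normoxia arrays gave 2587, 1780 and 2002 and the hypoxia arrays 2765, 8899 and 7286. Whether replicate 1 lay above normoxia before scaling thus differed between these LncRNAs, while replicates 2 and 3 lay far above it in each. For AABR07026499.2 intensities went from 49.2, 48.0 and 32.8 to 53.1, 393 and 331. For LOC102547518 they went from 550, 453 and 430 to 621, 3521 and 3329, with replicate 1 above each normoxia array for both LncRNAs. All 6 probes carried the image software's flag for a signal well above background on all 6 arrays.

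The rank of a spot among all probes of its array does not depend on the scaling of arrays. LOC102546476 stood at percentile 35.0, 35.2 and 38.2 on the normoxia arrays, at 45.4 on hypoxia replicate 1 and at 69.2 and 69.4 on replicates 2 and 3. LOC102551409 stood at 44.7, 43.2 and 43.5 under normoxia and at 49.5, 69.2 and 67.0 under hypoxia. AABR07026499.2 moved from 52.9, 55.2 and 53.4 to 59.8, 77.0 and 77.3. In rank, replicate 1 lay above the normoxia arrays by a small step and the other hypoxia arrays by a large one. AABR07068554.1, near the top of the scale under normoxia, rose from 89.8, 88.7 and 90.9 to 92.9, 96.7 and 96.8. AABR07013747.2 gained 4.41 percentile points over the normoxia mean in replicate 1 and 15.7 in replicates 2 and 3, and LOC102547518 gained 3.75 and 13.1.

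**Figure D2:**
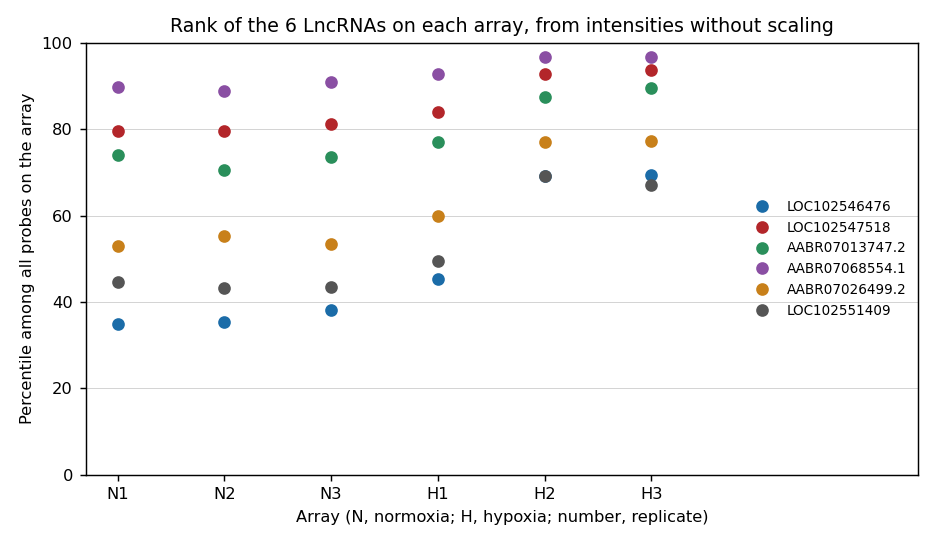
Percentile of each of the 6 LncRNAs among all probes with a value (vertical axis) on each array (horizontal axis), from intensities without scaling, with 1 colour per LncRNA. LOC102546476 moves from between 35.0 and 38.2 under normoxia to 45.4 in hypoxia replicate 1 and to 69.2 and 69.4 in hypoxia replicates 2 and 3.

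On the array, the 6 spots lay apart from one another, at rows 8, 30, 93, 310, 433 and 522 of 532 and at columns 3 to 75 of 85. Around each of them, 11 to 22 tested probes had spots within 2 rows and 2 columns. The median change of these surrounding probes in hypoxia replicates 2 and 3 was between -0.20 and 0.40 on the log2 scale, against 2.07 to 3.22 for the LncRNA spots they surround. The highest single surrounding probe rose by 2.30 next to LOC102547518, by 1.40 next to AABR07068554.1 and by 0.83 to 1.28 next to the other 4.

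The lack of a 2-fold rise in hypoxia replicate 1 was common among LncRNA probes that rose on replicates 2 and 3. The mean of these replicates was over 2-fold above normoxia for 884 of 6246 LncRNA probes (14.2%) and for 2612 of 30451 probes of all kinds (8.58%). Of the 884 LncRNA probes, 857 (96.9%) did not rise by 2-fold in hypoxia replicate 1, where a fall of any size is counted too. Thus 13.7% of LncRNA probes tested, and 7.68% of all probes, rose over 2-fold in replicates 2 and 3 and not in replicate 1. The number of probes raised over 2-fold in replicates 2 and 3 moved several-fold with the processing: it was 149 LncRNA probes and 680 probes of all kinds after normexp, 2161 and 5961 after 75th-percentile scaling, and 2786 and 8027 with no scaling. For the probes counted as mRNAs, 7.11% rose over 2-fold in replicates 2 and 3, and 85.7% of these did not rise by 2-fold in replicate 1. Among probes lowered over 2-fold in replicates 2 and 3, replicate 1 was not lowered by 2-fold in 87.5% for LncRNAs and in 74.1% for mRNAs.

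How far hypoxia replicate 1 followed the other hypoxia arrays varied among the 6. Its log2 change was 21.1% of that in replicates 2 and 3 for LOC102551409, 21.2% for AABR07026499.2, 22.8% for AABR07013747.2, 25.0% for LOC102547518, 25.6% for LOC102546476 and 37.0% for AABR07068554.1. With no scaling these percentages were lower for each of the 6, from 8.73% for LOC102551409 to 20.6% for AABR07068554.1, and with normexp they ran from 14.0% to 35.4% for the same 2 LncRNAs. Over the 884 raised LncRNA probes of the quantile-normalized values the median of this percentage was 4.71%, with quartiles at -7.38% and 16.9%, and for 342 of them replicate 1 lay below the normoxia mean. The percentage was higher for bright probes: for LncRNAs in the brightest of 4 equal groups of all probes, which holds LOC102547518 and AABR07068554.1, its median was 21.0% and its quartiles were 12.0% and 31.3%, so that LOC102547518 lay inside them. AABR07068554.1 lay above the upper quartile of this group. That quartile was 16.1% for LncRNAs in the next brightest group, which holds AABR07013747.2 and AABR07026499.2. It was 12.2% in the group below that, which holds LOC102546476 and LOC102551409. Each of these LncRNAs lay above the upper quartile of its group. No test was made of these differences.

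**Figure D3:**
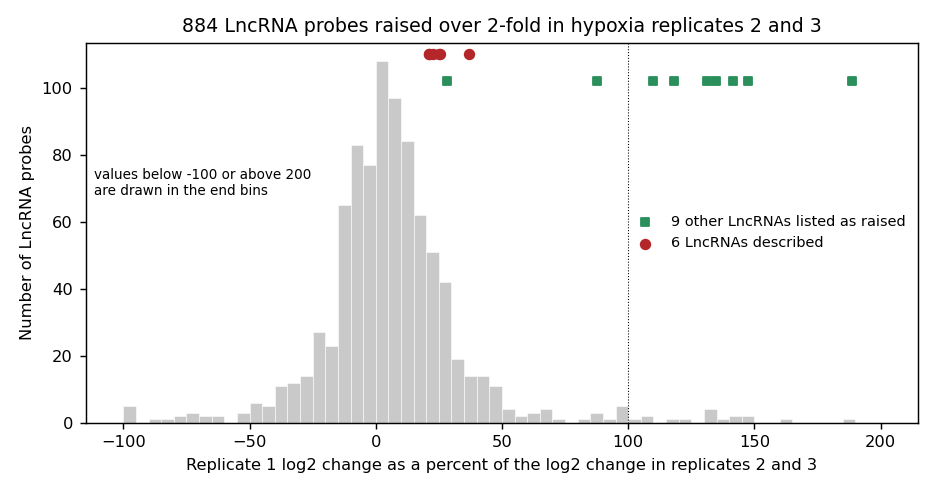
Number of LncRNA probes (vertical axis) by the log2 change in hypoxia replicate 1 as a percent of that in hypoxia replicates 2 and 3 (horizontal axis), for the 884 LncRNA probes raised over 2-fold in replicates 2 and 3 after quantile normalization. The circles mark the 6 LncRNAs, from 21.1% to 37.0%, and the squares mark the 9 other LncRNAs of the heatmap that are listed as raised, where the median of all 884 is 4.71%.

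Ranked by their rise in hypoxia replicates 2 and 3, the 6 were among the highest LncRNA probes. They were chosen for a large rise there and a small one in replicate 1, so nothing is read from the ranks. LOC102546476 was number 4 of 6246, AABR07013747.2 number 6, LOC102547518 number 7, AABR07026499.2 number 9, LOC102551409 number 19 and AABR07068554.1 number 41. For LOC102546476, whose normoxia signal was no larger than its background, the rise in replicates 2 and 3 was 1.60 on the log2 scale after normexp in place of 3.22, while for AABR07026499.2 it was 1.85 in place of 2.76 and for LOC102551409 1.18 in place of 2.39, so that the ranks describe the quantile-normalized values only. Ranked by replicate 1 they came between number 179 and number 462. Counting AABR07068554.1 itself, 41 LncRNA probes rose at least as far as it did in replicates 2 and 3. Of these, 38 did not rise by 2-fold in replicate 1.

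The 9 other LncRNAs listed as raised, except AABR07045680.1, differed from the 6 in where the rise was seen. In hypoxia replicate 1 the median difference of the 9 was 2.41 on the log2 scale. In replicates 2 and 3 it was 1.84, against medians of 0.70 and 2.84 for the 6. With no scaling the medians of the 9 were 2.17 and 2.32, the other way round, and those of the 6 were 0.36 and 2.93. The change in replicate 1 was over 2-fold for 8 of the 9 and for 0 of the 6, which were chosen for a small change there. After normexp it was over 2-fold for 5 of the 9 in replicate 1 and for 4 of the 9 in replicates 2 and 3. The member with the highest value in replicate 1 was LOC102546476, at 0.82, and the nearest value above it was that of LOC100912312, at 1.65. One LncRNA outside the 6, AABR07045680.1, had their pattern, with normalized log2 values of 9.17, 9.13 and 9.32 under normoxia and of 9.84, 11.55 and 11.39 under hypoxia. Its change was 0.64 in replicate 1 and 2.26 in replicates 2 and 3, inside the range of the 6, so that the group of 6 is not a complete list of such LncRNAs. For the other 8, hypoxia replicates 2 and 3 were at or below replicate 1 except in LOC100912312, where they lay 0.19 and 0.27 above it. The normoxia values of LOC102555870, 1 of these 8, were not well above background on any normoxia array, so its differences are bounds.

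**Figure D4:**
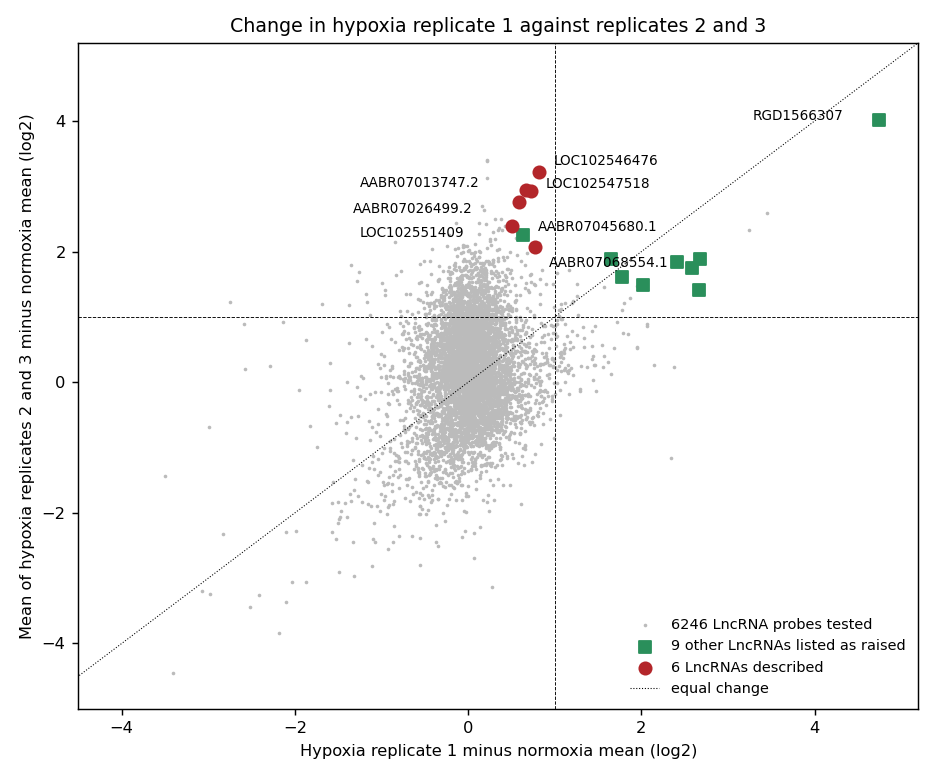
Log2 difference from the normoxia mean in hypoxia replicate 1 (horizontal axis) and in the mean of hypoxia replicates 2 and 3 (vertical axis) for 6246 LncRNA probes. The 6 LncRNAs (circles) lie left of the dashed 2-fold line, between 0.50 and 0.82, as does AABR07045680.1 at 0.64, and the 8 other LncRNAs listed as raised (squares) lie to its right, from 1.65 upwards.

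A fit across all 30451 detected probes gave the background for these changes. In limma, with replicate numbers as blocks, a probe was called raised when it passed 0.05 after Benjamini-Hochberg adjustment and rose over 2-fold. By this rule 0.923% of all probes and 0.464% of LncRNA probes were called, and 0 of the 6 LncRNAs were. At an unadjusted p under 0.05 and over 2-fold the same fit called 6 of the 6, where 3.44% of all probes were called. The paired test named in the study's methods called 0 of the 6, both after adjustment (0.00328% of all probes) and before it (1.07%).

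The call of the 6 moved with hypoxia replicate 1 and with the block. With that array left out, and no block, limma called 6 of the 6, against 8.38% of all probes. The hypoxia arrays that remain were read in 1 scan and the normoxia arrays in the other. Hypoxia and scan then cannot be told apart, and the same holds without both arrays of replicate number 1. Since the 6 were chosen for a low value in hypoxia replicate 1, nothing is read from that count. With all 6 arrays and no block it called AABR07068554.1 only, against 1.27% of all probes. Leaving out both arrays of 1 replicate number, with the block kept, gave 6 of the 6 each time, against 8.76% of all probes for number 1, 1.3% for number 2 and 1.39% for number 3. Without number 2 or number 3 the fit gave all 6 LncRNAs 1 common standard error (0.397 and 0.392), so that those calls follow from the size of the change alone. Leaving out any other single array, without the block, gave 0 of the 6, where the background was 0.683%, 0.663% and 0.693% for normoxia replicates 1, 2 and 3 and 0.962% and 0.972% for hypoxia replicates 2 and 3.

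Other processing moved the call too. Scaling each array to its 75th percentile gave 6 of the 6 (4.08% of all probes), the authors' processed values gave LOC102546476 and AABR07068554.1 (1.08%) and testing probes detected on all arrays gave AABR07068554.1 (0.98%). The count was 0 of the 6 with normexp background correction (0.562%), with no scaling (0.309%), with no detection filter (0.147%) and with the scan as a block (2.08%), a fit in which hypoxia replicate 1 alone carries the hypoxia term. With scan and replicate blocks together it was 0 of the 6, against 0% of all probes. With the scan as a block, the hypoxia term of each of the 6 was its replicate 1 change, 0.50 to 0.82. It could not pass 2-fold, so that the count of 0 was fixed by the choice of the LncRNAs. The contrast is the one that chose the LncRNAs, and nothing is read from these counts.

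The separation between hypoxia replicate 1 and the other hypoxia arrays was present under each of the 5 ways of processing the intensities that were tried. Without any scaling between arrays, the log2 change of the 6 was 0.25 to 0.60 in replicate 1 and 1.94 to 3.77 in replicates 2 and 3, and replicate 1 exceeded every normoxia array for 4 of the 6. After 75th-percentile scaling the ranges were 0.61 to 0.95 and 1.74 to 3.56, and replicate 1 exceeded every normoxia array for 6 of 6. That scaling also moved the median change of all LncRNA probes in replicates 2 and 3 to 0.69, from 0.22 after quantile normalization, while in replicate 1 it was 0.07 and 0.02. The median over LncRNA probes in replicates 2 and 3 was 0.89 with no scaling and 0.07 with normexp, so that its size depended on the processing, and its part in the rise of the 6 was not tested. After normexp background correction with an offset of 50, which shrinks the changes of dim probes, the ranges were 0.16 to 0.73 and 1.18 to 2.76. The change in replicate 1 stayed under 2-fold and that in replicates 2 and 3 over 2-fold for 6 of 6 in all 5. The 6 were chosen for this split, so nothing is read from that count. Of LncRNA probes raised over 2-fold in replicates 2 and 3, 96.0% to 98.3% did not rise by 2-fold in replicate 1 across the 5. After quantile normalization, replicate 1 exceeded every normoxia array for 35.1% of LncRNA probes and 37.1% of all probes. That share was not counted for the other ways of processing.

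**Figure D5:**
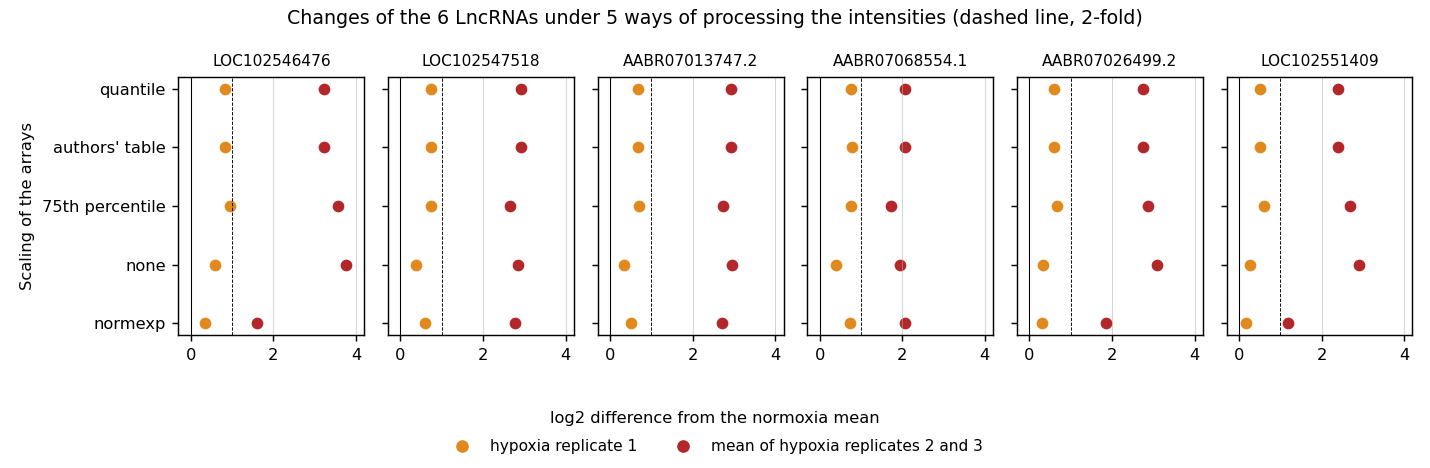
Log2 difference from the normoxia mean (horizontal axis) in hypoxia replicate 1 and in the mean of hypoxia replicates 2 and 3 for each of the 6 LncRNAs (panels), under 5 ways of processing the intensities (rows). The point of replicate 1 lies left of the dashed 2-fold line and that of replicates 2 and 3 to its right in every row, and normexp gives the smallest rise for LOC102551409, at 1.18.

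For each of the 6, the 3 tested probes with the closest profile over the 6 arrays were sought, as the smallest Euclidean distance between values taken relative to the normoxia mean. These 18 places went to 13 different probes, 5 of them LncRNA and 8 mRNA probes, at distances of 0.20 to 0.53 on the log2 scale. The closest to LOC102547518 was the LncRNA probe ASRN6LNC1A100002766V3, at 0.32, with a change of 0.56 in hypoxia replicate 1 and 2.83 in replicates 2 and 3. LOC102547518 was itself among the 3 closest to LOC102546476 and to AABR07013747.2. The mRNA probe ASRN6AP1B100041615V3, which the files do not pair with a gene, was among the 3 closest to LOC102547518, AABR07013747.2 and AABR07026499.2. Between 2 of the 6 LncRNAs the distance ran from 0.40 to 1.63. With 6 arrays such closeness is a description, and the probes share the step between the scans.

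Few genes of the response to low oxygen could be named here, since most probes have no gene name in the sources used. Of 32 symbols of HIF target genes listed, in which Ca9 and Car9 name the same gene, 3 could be given a probe. These were Ldha, through the accession in the array files, and Kdm4b and Id2, through the study's list of genes changed on these arrays. Ldha, which encodes the enzyme that makes lactate from pyruvate and is a textbook gene raised by low oxygen, had normalized log2 values between 12.04 and 12.17 under normoxia and between 10.72 and 11.02 under hypoxia. It was lower on all hypoxia arrays, by a similar amount in replicate 1 (-1.08) and in replicates 2 and 3 (-1.32). Kdm4b, a histone demethylase, had differences of -2.42 and -1.75, and Id2, an inhibitor of differentiation factors, of -1.87 and -2.80. Being named from that list, Kdm4b and Id2 are given by their values only. By limma with the replicate block Ldha was called lowered (log2 change -1.24, SE 0.17, adjusted p = 0.0287), as were 2.71% of all probes. Of 20 marker genes of mesenchymal, blood and endothelial cells, 0 could be given a probe, so the labelled cell type was not checked.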

How the data were processed

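BMSC samples kept in normoxia or hypoxia (3 each) were measured on 1 Agilent array apiece, and groups and replicate numbers came from the sample titles. The authors deposited Feature Extraction output (version 11.0.1.1) with background-corrected intensity values that are not normalized between arrays. A second deposited table holds log2 values, quantile-normalized with GeneSpring per the study's methods, and served as an alternative. Flags of detection, saturation and outlier spots are other columns of the deposited files.

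Control and outlier spots were left out, spots of 1 probe were averaged on the log2 scale and arrays were quantile-normalized over the 38733 of 38804 probes with a value on every array. The 30451 probes with detection on 3 or more arrays entered limma 3.58.1 in R 4.3.3, blocked by replicate number since the methods name a paired test. The fits were tested on simulated data. Probe names gave the class, LncRNA or mRNA. Names of the 6 LncRNAs came from the study's listed values, each of which matched 1 probe within 4.7e-05, with the next probe at least 0.265 away.

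The genes named are the 6 LncRNAs, the 9 others listed as raised, the 3 closest profiles to each, and HIF targets with a probe. The members and lists were chosen with earlier results of these data known. Alternatives were 75th-percentile scaling, no scaling, normexp on spot medians, the authors' values, other detection filters, other blocks, the methods' paired t-test and leaving out each replicate number or array.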

Additional observations from a re-analysis of the deposited data

How the results depend on the processing

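None of the log2 differences of the 6 LncRNAs, in hypoxia replicate 1, in replicates 2 and 3 or averaged, changed sign under the alternatives tried, of which leaving out 1 hypoxia array cannot move a difference that does not use it. The number of the 6 called raised was 0 and became 6 with 75th-percentile scaling, 2 with the authors' processed values, 1 with probes detected on all arrays and 0 to 6 when a replicate number was left out or, without the block, an array was, where all 6 arrays without the block gave 1. The percent of all probes called raised was 4.08% with 75th-percentile scaling, 0.562% with normexp, 0.309% with no scaling, 0.147% with no detection filter, 2.08% with the scan as a block, 0% with scan and replicate blocks and 0.00328% with the methods' paired t-test, adjusted, and it ran from 0.663% to 8.76% when replicates were left out. The causes were not tested.

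Same-numbered arrays deviated from their group means with correlations of -0.19, -0.06 and -0.09, so that no pairing showed in the values, but the hypoxia deviations hold the step between the scans and this does not settle whether the cultures were paired. Without the replicate block 1 of the 6, AABR07068554.1, was called raised, and 1.27% of all probes were.

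The median over the 6 of the replicate 1 change, as a percent of that in replicates 2 and 3, was 23.9%. It was 26.0% with 75th-percentile scaling, 20.3% with normexp and 12.4% with no scaling, and 22.7% to 27.0% when replicates were left out. Of probes raised over 2-fold in replicates 2 and 3, 89.6% did not rise by 2-fold in replicate 1, whether they rose less or fell. That share was 92.6% with 75th-percentile scaling, 80.9% with normexp, 95.5% with no scaling and 88.9% to 90.8% when an array was left out. For LncRNA probes it was 98.3% with no scaling, 93.7% with no detection filter, 98.0% with detection on all arrays and 96.2% to 97.2% when an array was left out.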
